A study of Mus musculus with 18 samples.

Results

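Levels of 10 genes of the ATF4 stress response and of serine synthesis were followed in the retinal pigment epithelium (RPE) of mice labelled *rd1*, with and without added Nrf2. The genes were *Atf4*, *Ddit3*, *Trib3*, *Asns*, *Sesn2*, *Phgdh*, *Psat1*, *Psph*, *Shmt2* and *Mthfd2*. They were picked by name from 47729 genes, and all 10 were among the 18958 genes with enough counts to be tested. The labels give every animal as *rd1*, a mutation of *Pde6b* that kills rods early in life, and as 40 days old. The study's methods, however, describe fewer *rd1* pairs at this age and, beside them, pairs of wild-type CD1 mice, so some of the 9 mice may be wild-type CD1, and the sources used here do not say which. An eye of each of 9 mice was given AAV-Best1-Nrf2, a vector with the human Nrf2 cDNA behind the RPE promoter Best1, along with AAV-Best1-GFP (Best1-Nrf2 eyes). The other eye was given AAV-Best1-GFP and nothing else (control eyes), so the GFP vector was common to both groups and the total vector dose was not. Poly(A) RNA was taken from the eyecup after the retina had been lifted off and was amplified before sequencing, which gave 9 libraries per group. The comparison between the eyes of a mouse asked how the RNA of these genes differed when Nrf2 was expressed in the RPE.

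ATF4 is a transcription factor of the integrated stress response. Kinases that sense unfolded protein, scarce amino acids, viral RNA or lack of heme phosphorylate the initiation factor eIF2α, which slows most translation but lets the *Atf4* message be read past its upstream reading frames, so the level of that message does not measure the protein. ATF4 then turns on genes that make or import amino acids, among them those of serine synthesis (*Phgdh*, then *Psat1*, then *Psph*) and of mitochondrial one-carbon metabolism (*Shmt2*, *Mthfd2*), and stress regulators such as *Ddit3*, which encodes CHOP. Nrf2 is known for driving antioxidant genes, and a few genes, such as the cystine transporter *Slc7a11*, are targets of both factors.

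Promoters were read to show which members carry letters that these factors are known to bind. RefSeq promoters on GRCm38.p6, from 250 bases before to 50 bases after the start, were found for 10 of 10 members. The ATF4 element was searched as TGATGCAA and, more loosely, as TGATGNAA, which includes it, and the core of the antioxidant response element bound by Nrf2 as TGACNNNGC, each on both strands. Of 32851 mouse promoters of this length, 0.895% held TGATGCAA, 3.97% held TGATGNAA and 12.4% held TGACNNNGC. No member held TGATGCAA. The looser form was found in 2 of 10 members, *Asns* and *Trib3*, and TGACNNNGC in 4 of 10, *Asns*, *Sesn2*, *Phgdh* and *Psph*. Shown here are *Asns*, *Trib3*, *Sesn2* and *Phgdh*, as members with a match whose estimates, given later, were farther from 0 than that of *Psph*, with *Slc7a11* and *Slc1a4*, amino acid transporters whose levels are given later. Each line runs from 120 bases before to 30 bases after the start of the gene, 5′ to 3′ on the strand of the gene, with matches in capitals.
Asns: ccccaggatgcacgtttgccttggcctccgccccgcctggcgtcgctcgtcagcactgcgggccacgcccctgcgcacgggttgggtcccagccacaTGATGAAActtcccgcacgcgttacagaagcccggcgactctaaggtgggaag
Trib3: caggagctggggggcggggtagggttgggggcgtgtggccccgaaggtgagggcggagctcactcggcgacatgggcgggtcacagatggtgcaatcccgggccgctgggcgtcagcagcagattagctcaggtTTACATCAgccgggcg
Sesn2: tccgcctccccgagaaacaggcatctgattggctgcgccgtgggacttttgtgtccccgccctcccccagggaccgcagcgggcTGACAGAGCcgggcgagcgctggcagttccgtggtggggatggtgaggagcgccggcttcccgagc
Phgdh: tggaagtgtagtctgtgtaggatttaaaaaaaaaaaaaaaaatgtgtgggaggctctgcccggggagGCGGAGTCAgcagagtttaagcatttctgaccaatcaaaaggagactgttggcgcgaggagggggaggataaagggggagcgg
Slc7a11: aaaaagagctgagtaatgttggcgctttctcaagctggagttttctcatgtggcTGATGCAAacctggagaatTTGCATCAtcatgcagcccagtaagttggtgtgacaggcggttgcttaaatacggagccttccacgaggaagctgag
Slc1a4: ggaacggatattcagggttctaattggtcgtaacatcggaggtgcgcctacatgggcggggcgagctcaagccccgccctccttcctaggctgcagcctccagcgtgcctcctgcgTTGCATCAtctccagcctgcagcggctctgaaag
All of them lie on the minus strand, *Asns* at chr6:7693180-7693329, *Trib3* at chr2:152344031-152344180, *Sesn2* at chr4:132510427-132510576, *Phgdh* at chr3:98339940-98340089, *Slc7a11* at chr3:50443584-50443733 and *Slc1a4* at chr11:20332684-20332833. The match in *Asns* was TGATGAAA, and a match to TGACNNNGC lay further upstream, at -172 from the start. In *Trib3* the match began 15 bases into the transcript. *Slc7a11* held TGATGCAA at -66 and its reverse complement at -47, and *Slc1a4* held the reverse complement across the start. A match to these letters is a description of the window and not a bound site.

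*Nfe2l2*, the mouse gene of Nrf2, was read first as a check of the labels. It ranged from 76.7 to 134 CPM (counts relative to the TMM-adjusted library total; median, 83.0) in control eyes and from 275 to 704 CPM (median, 457) in Best1-Nrf2 eyes. The groups did not overlap, and each of the 9 mice had the higher level on the Nrf2 side. Its log2 fold change was 2.29 (SE 0.21, adjusted p = 6.21e-05 in edgeR's quasi-likelihood test with mouse as a block). Gene counts do not separate the human cDNA from the mouse transcript, so the value can hold both.

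Library totals ran from 18956748 to 44054836 counts in control eyes and from 32839893 to 49598700 in Best1-Nrf2 eyes, and the lowest was that of control replicate 8. Of 26 RPE markers, 26 were tested, and their summed level was 16185 to 76950 CPM without and 22562 to 86318 CPM with Nrf2, so the labelled cell type was present in both groups, beside other cells. The marker with the highest mean was *Ttr*, at 12874 CPM without and 18046 CPM with Nrf2, so the sum leaned on it. Of the 26 markers, 6 fell and 1 rose (median log2 fold change -0.32). *Rpe65* fell from a mean of 2021 to 297 CPM (log2 fold change -2.81, adjusted p = 0.000241 in edgeR). Photoreceptor markers fell in 15 of 20 tested (median log2 fold change -3.26), and their sum ran from 363 to 2665 CPM in control eyes and from 44.1 to 386 CPM in Best1-Nrf2 eyes. *Nrl* and *Nr2e3*, which define rods, were too low to be tested. Macrophage and microglia markers rose in 11 of 20 (median, 1.65), with sums of 189 to 523 and 200 to 825 CPM. Fibroblast and sclera markers rose in 2 of 11 tested (10 estimates positive, median 0.57), with sums of 317 to 831 and 556 to 1165 CPM, and their score was higher on the Nrf2 side in 9 of 9 mice, by 0.30 to 1.399. In bulk RNA, fewer cells of a type and less RNA per cell cannot be told apart. Mouse 6 stood apart. Its photoreceptor score (mean log2 CPM of the markers) differed by only -0.29 between the eyes, against -4.99 to -2.30 in the other mice, and its inner retina neuron score was 3.58 higher in the Best1-Nrf2 eye. Inner retina markers were tested for 16 of 19 genes, of which none passed (1 at an unadjusted p under 0.05), with sums of 826 to 1466 CPM without and 810 to 2540 CPM with Nrf2. For the genes named below, values without mouse 6 or mouse 8 are also given where leaving that mouse out moved a call.

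None of the 10 members passed an adjusted p of 0.05 in edgeR, beside 4.25% of all genes tested (806 genes; 3.12% higher and 1.13% lower). At an unadjusted p under 0.05 there were 5 of 10 members, beside 12.8% of all genes, and these were *Trib3*, *Sesn2*, *Phgdh*, *Psat1* and *Mthfd2*. DESeq2 called 2 of 10, *Sesn2* and *Phgdh*, beside 7.80% of all genes. Voom with sample weights called 3 of 10, those and *Psat1*, beside 7.52%. The estimate was negative for 8 members and positive for 2, *Sesn2* and *Psph*, and the median over the 10 was -0.48, against -0.03 over all genes tested. The mean log2 CPM over the 10 members was lower on the Nrf2 side in 8 of 9 mice, with differences from -0.57 to 0.10. With the photoreceptor score as a covariate no gene passed, *Nfe2l2* included (1.71, adjusted p = 0.236), and the estimates of *Atf4*, *Ddit3*, *Asns*, *Sesn2* and *Mthfd2* changed sign. The part of photoreceptor RNA in these results was not tested further.

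**Figure D1:**
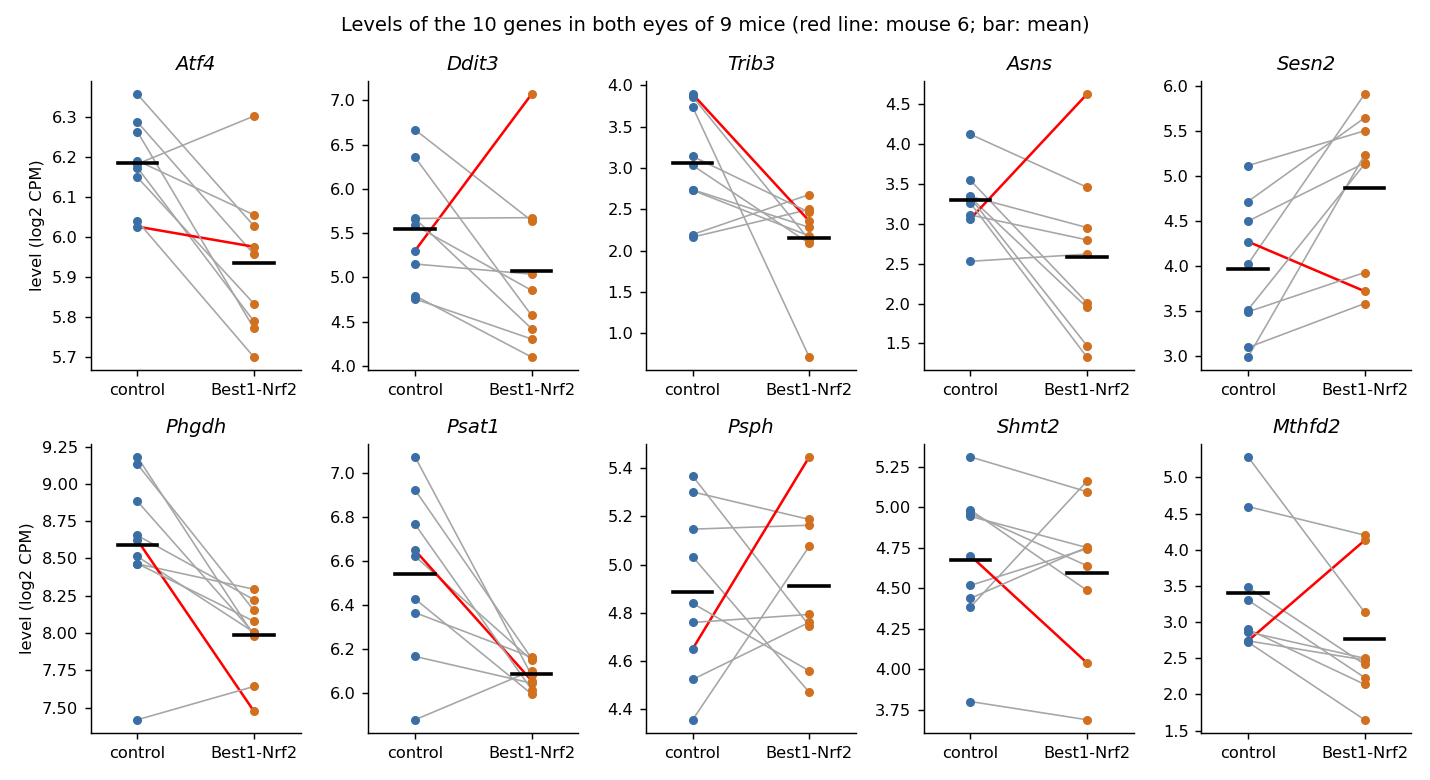
Level of each gene, in log2 CPM, in the control eye (blue) and the Best1-Nrf2 eye (orange) of 9 mice. Lines join the eyes of a mouse, the red line is mouse 6 and black bars are group means. *Sesn2* is higher with Best1-Nrf2 in 8 of 9 mice, *Atf4*, *Phgdh*, *Psat1* and *Mthfd2* are lower in 8 of 9, and the red line of mouse 6 goes up for *Ddit3*, *Asns* and *Mthfd2*, which most other mice do not.

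*Atf4* itself (chr15:80255184-80257541, plus strand) was the most even of the stress genes in control eyes. Its level was 65.1 to 81.9 CPM (median, 72.6) in control eyes and 52.0 to 78.9 CPM (median, 62.1) in Best1-Nrf2 eyes. The groups overlapped, but 6 of 9 Best1-Nrf2 eyes lay below the lowest control eye, and the level was lower in 8 of 9 mice. The log2 fold change was -0.25 (SE 0.12, 95% interval -0.51 to 0.01, adjusted p = 0.422 in edgeR), so a fall of more than 0.51 on the log2 scale lay outside the interval. Mouse 8 was the one in which *Atf4* was higher with Best1-Nrf2.

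*Ddit3* (chr10:127290774-127296288, plus strand), the gene of the proapoptotic factor CHOP, varied widely. It ran from 27.0 to 102 CPM (median, 48.0) in control eyes and from 17.1 to 134 CPM (median, 28.9) in Best1-Nrf2 eyes. The highest level of all 18 libraries was in the Best1-Nrf2 eye of mouse 6, at 134 CPM against 39.4 CPM in its control eye, while 4 of 9 Best1-Nrf2 eyes lay below the lowest control eye. Its log2 fold change was -0.51 (SE 0.30, adjusted p = 0.567 in edgeR). It was -0.76 without mouse 6 (adjusted p = 0.0562) and -0.86 without mice 6 and 8 (adjusted p = 0.0377), a choice of animals made after seeing the data. The inner retina score of mouse 6 is given above, and mouse 2, whose score was also higher with Best1-Nrf2, by 2.46, had a *Ddit3* difference of -1.24. The part of these cells in the result was not tested.

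*Trib3* (chr2:152337422-152344032, minus strand), a pseudokinase induced with CHOP that binds ATF4, had the lowest estimate of the 10. Its level was 4.43 to 14.8 CPM (median, 8.12) in control eyes and 1.59 to 6.35 CPM (median, 4.81) in Best1-Nrf2 eyes. The control eyes of mice 4, 6 and 8 were the high ones, at 13.3 to 14.8 CPM, and no Best1-Nrf2 eye reached 7 CPM. The log2 fold change was -0.88 (SE 0.35, 95% interval -1.65 to -0.12), with an unadjusted p of 0.0265 and an adjusted p of 0.277 in edgeR, and the level was lower in 7 of 9 mice. Leaving out mouse 8, whose difference was -3.02, gave -0.64 (adjusted p = 0.366). Over 22 alternatives the estimate of *Trib3* ran from -2.002 to 0.11. With the RPE score as a covariate the estimate was -1.73 and passed (adjusted p = 0.0248), and with the macrophage score its sign turned (0.11, adjusted p = 0.9998). The part of these cells in the result was not tested further.

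*Asns* (chr6:7675169-7693254, minus strand), asparagine synthetase and a classical ATF4 target, was 5.72 to 17.3 CPM (median, 9.95) in control eyes and 2.46 to 24.6 CPM (median, 6.09) in Best1-Nrf2 eyes. As with *Ddit3*, the Best1-Nrf2 eye of mouse 6 was the highest of all libraries, and 4 of 9 Best1-Nrf2 eyes were below the lowest control eye. Its estimate was -0.74 on the log2 scale (SE 0.35, adjusted p = 0.410 in edgeR), and -1.002 without mouse 6 (adjusted p = 0.0633).

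*Sesn2* (chr4:132492032-132510501, minus strand) encodes sestrin 2, a stress-induced inhibitor of mTORC1 that is known as a target of both ATF4 and Nrf2. Its level was 7.86 to 34.7 CPM (median, 16.2) in control eyes and 11.9 to 60.2 CPM (median, 35.3) in Best1-Nrf2 eyes. In all, 6 of 9 Best1-Nrf2 eyes exceeded every control eye, and the 3 that did not were those of mice 3, 6 and 8. The log2 fold change was 0.90 (SE 0.27, 95% interval 0.30 to 1.497), a fold of 1.87, with an unadjusted p of 0.00645 and an adjusted p of 0.113 in edgeR. *Sesn2* was higher in 8 of 9 mice, and mouse 6 was the exception, at -0.55. Without mouse 6 the log2 fold change was 1.08 and passed (adjusted p = 0.0231), as it did by DESeq2 (adjusted p = 0.0208) and voom (adjusted p = 0.0108). Among the relatives of *Sesn2* and *Trib3*, 0 of 4 passed in edgeR, with DESeq2 or with voom, beside 4.25%, 7.80% and 7.52% of all genes tested. At an unadjusted p under 0.05 in edgeR there were 0 of 4, beside 12.8% of all genes. With 4 genes, such counts do not set these relatives apart from all genes. *Sesn1* had a log2 fold change of -0.27 (adjusted p = 0.617) and *Trib2* of 0.25 (adjusted p = 0.742).

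**Figure D2:**
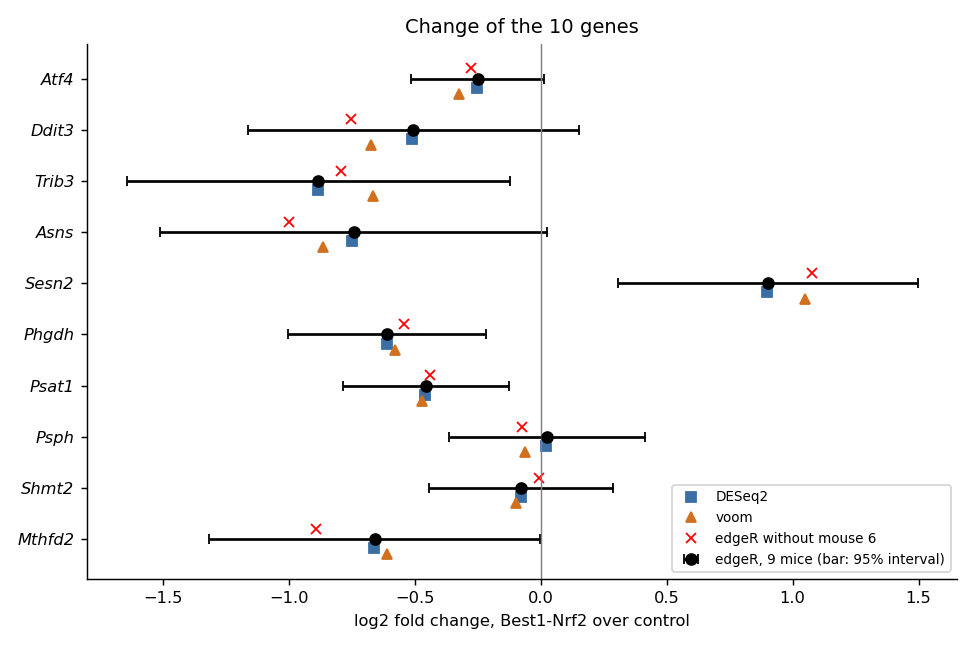
Log2 fold change of each gene, Best1-Nrf2 over control. Black points and bars are the edgeR estimate and its 95% interval over 9 mice, and the other symbols are DESeq2, voom with sample weights, and edgeR without mouse 6. The interval of *Sesn2* lies from 0.30 to 1.497, and that of *Psph*, from -0.37 to 0.41, is centered near 0.

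The genes of serine synthesis are given in the order of the steps. *Phgdh* (chr3:98313170-98339990, minus strand), which encodes the enzyme of the first step, was 171 to 581 CPM (median, 394) in control eyes and 178 to 314 CPM (median, 257) in Best1-Nrf2 eyes. In all, 8 of 9 control eyes were above the highest Best1-Nrf2 eye, and the exception was control replicate 8, the smallest library, with the lowest level of all. The log2 fold change was -0.61 (SE 0.18, 95% interval -1.01 to -0.22), with an unadjusted p of 0.00554 and an adjusted p of 0.102 in edgeR. The level was lower in 8 of 9 mice. *Phgdh* passed by DESeq2 (adjusted p = 0.0193), by voom (adjusted p = 0.0318) and in edgeR without mouse 8 (log2 fold change -0.71, adjusted p = 0.0423). Of the 26 RPE markers, 6 fell and 1 rose. Their score was lower on the Nrf2 side in 7 of 9 mice, by differences of -0.88 to 0.43 with the highest in mouse 8, and with that score as a covariate the log2 fold change of *Phgdh* was -0.26 (adjusted p = 0.503). Over 22 alternatives the estimate of *Phgdh* ran from -1.085 to -0.26. The part of the RPE content in the result was not otherwise tested. Of the 31-base words of *Phgdh* transcripts, 56.3% occurred in other annotated genes, most of them in *Gm7901*, so reads could be split between copies, though *Gm7901* itself was counted at only 0.369 ± 0.0989 CPM without and 0.261 ± 0.106 CPM with Nrf2 (SD, n = 9 per group).

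*Psat1* (chr19:15904678-15947337, minus strand), the aminotransferase of the second step, is next. Its level was 58.8 to 135 CPM (median, 98.4) in control eyes and 63.8 to 71.6 CPM (median, 67.7) in Best1-Nrf2 eyes. Again 8 of 9 control eyes were above every Best1-Nrf2 eye, and control replicate 8 was below them all. The Best1-Nrf2 eyes lay in a narrow band. As a log2 fold change this was -0.46 (SE 0.15, 95% interval -0.79 to -0.13), with an unadjusted p of 0.0105 and an adjusted p of 0.155 in edgeR, and the level was lower in 8 of 9 mice. Voom gave an adjusted p of 0.0399, and the estimate was -0.21 with the RPE score (adjusted p = 0.564), -0.22 with the photoreceptor score (adjusted p = 0.837) and -0.79 with the macrophage score (adjusted p = 0.9998) as a covariate.

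*Psph* (chr5:129765558-129787449, minus strand), the phosphatase that completes serine synthesis, was 20.4 to 41.2 CPM (median, 28.6) in control eyes and 22.1 to 43.6 CPM (median, 27.7) in Best1-Nrf2 eyes. The groups covered nearly the same range, and the level was higher in 5 of 9 mice. The fitted log2 fold change was 0.02 (SE 0.18, 95% interval -0.37 to 0.41, adjusted p = 0.983 in edgeR), and its sign changed with the scaling and with the mice included. With the photoreceptor score as a covariate it was 0.90 (SE 0.41, adjusted p = 0.314). *Psph* shared 9.79% of its 31-base words with other genes, most with *Cct6a*.

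*Shmt2* and *Mthfd2* encode mitochondrial enzymes that pass the one-carbon unit of serine on to folate. *Shmt2* (chr10:127517123-127522444, minus strand) was 13.9 to 39.6 CPM (median, 25.95) in control eyes and 12.8 to 35.7 CPM (median, 26.7) in Best1-Nrf2 eyes, with no separation of the groups. Its log2 fold change was -0.08 (SE 0.17, 95% interval -0.44 to 0.29, adjusted p = 0.931 in edgeR). *Mthfd2* (chr6:83305691-83325908, minus strand) was 6.55 to 38.9 CPM (median, 7.42) in control eyes and 3.09 to 18.3 CPM (median, 5.51) in Best1-Nrf2 eyes. In all, 6 of 9 Best1-Nrf2 eyes lay below the lowest control eye, and the other 3, those of mice 3, 6 and 8, were above the rest. For *Mthfd2* the log2 fold change was -0.66 (SE 0.30, 95% interval -1.32 to -0.00334), with an unadjusted p of 0.0490 and an adjusted p of 0.385 in edgeR. It was lower in 8 of 9 mice, mouse 6 being the exception at 1.39, and passed without that mouse (log2 fold change -0.89, adjusted p = 0.0452).

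**Figure D3:**
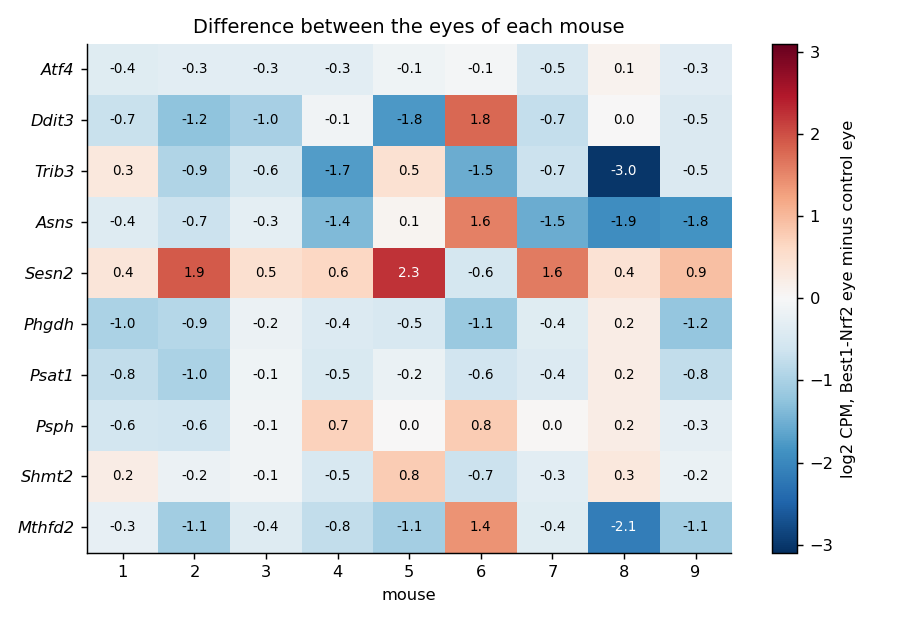
Difference in log2 CPM between the Best1-Nrf2 and the control eye of each mouse, red where the Best1-Nrf2 eye was higher and blue where it was lower. Mouse 6 is red for *Ddit3*, *Asns* and *Mthfd2* and blue for *Sesn2*, and mouse 8 has the deepest blue cells, -3.02 for *Trib3* and -2.15 for *Mthfd2*.

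The within-mouse differences of the members were then set against each other over the 9 mice. Over 55 relations (45 between members and 10 with *Nfe2l2*), none passed an adjusted p of 0.05 by an exact permutation test, and 23 of the 45 member pairs had a positive r. The closest were *Phgdh* and *Psat1*, neighbours in the pathway (Pearson's r = 0.87, exact permutation p = 0.00259, adjusted p = 0.0916; Spearman's rho = 0.80, exact permutation p = 0.0138, adjusted p = 0.588). Their r was 0.75 without mice 8 and 9, the 2 farthest from the median of *Phgdh*. *Ddit3* and *Sesn2* ran opposite to each other (r = -0.84, exact permutation p = 0.00333, adjusted p = 0.0916; rho = -0.77, exact permutation p = 0.0214, adjusted p = 0.588), but r was -0.55 without mice 5 and 6, so the relation leaned on those mice. *Asns* and *Mthfd2* gave r = 0.78 (exact permutation p = 0.0176, adjusted p = 0.297) with rho of 0.65 (exact permutation p = 0.0666, adjusted p = 0.697), but r was 0.08 without mice 6 and 8, so the relation rested on those mice. *Atf4* and *Nfe2l2* gave r = -0.74 (exact permutation p = 0.0216, adjusted p = 0.297) with rho of -0.40 (exact permutation p = 0.291, adjusted p = 0.822), and r was -0.52 without mice 4 and 8. Among 12377 genes, the differences most like those of *Atf4* over 9 mice were in *Prpsap2* (r = 0.94), *Ufsp1* (0.89) and *Nabp2* (0.89). Those most like *Phgdh* were in *Sdha* (r = 0.96), *Slc39a12* (0.95) and *Tmem47* (0.95). These genes were picked for their r, which is a description.

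Per kilobase of exon, *Phgdh* was by far the most abundant of the 10, with 163 ± 49.6 CPM per kilobase in control and 103 ± 17.7 in Best1-Nrf2 eyes (SD, n = 9 each). It was above *Atf4*, the next, in 9 of 9 libraries of each group. *Atf4* stood at 30.9 ± 2.32 CPM per kilobase in control eyes, followed by *Ddit3* at 30.01 ± 14.6 and *Psat1* at 22.5 ± 5.63. *Atf4* was above *Ddit3* in 7 of 9 and *Ddit3* above *Psat1* in 4 of 9 control libraries, so this order was not kept. *Psat1* was above *Shmt2* in 9 of 9 control libraries. From there the order was *Shmt2* (8.51 ± 2.45), *Psph* (7.00 ± 1.69), *Sesn2* (5.05 ± 2.60), *Trib3* (4.27 ± 1.94), *Mthfd2* (3.77 ± 3.20) and *Asns* (3.70 ± 1.15), in which neighbours kept their order in 3 to 6 of 9 control libraries. In Best1-Nrf2 eyes *Sesn2*, at 9.72 ± 4.95, had the higher mean than *Shmt2* and *Psph*, though it was above *Shmt2* in only 5 of 9 libraries, and *Trib3*, at 2.19 ± 0.631, came last, though below *Mthfd2* in only 3 of 9.

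**Figure D4:**
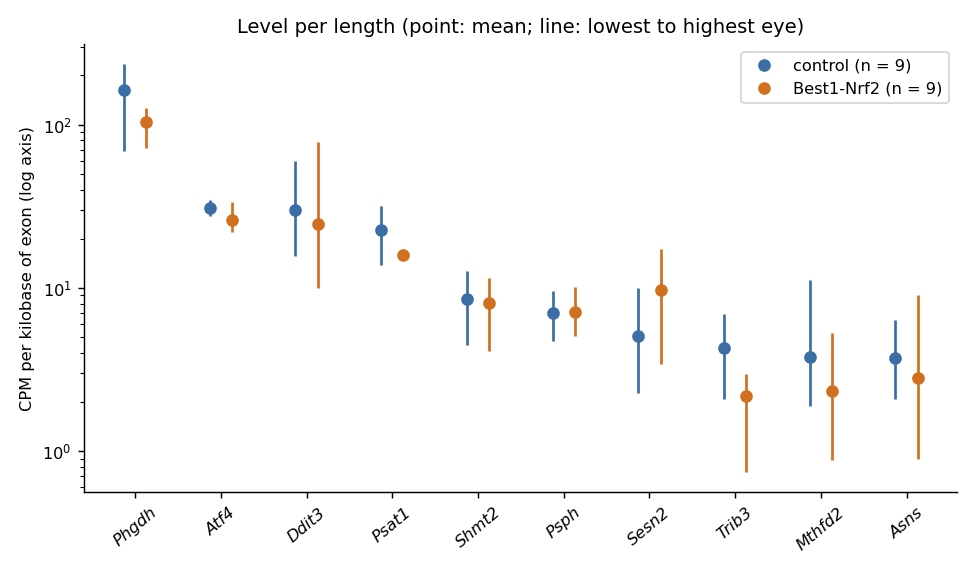
Level of each gene in CPM per kilobase of exon, on a log axis, in control (blue) and Best1-Nrf2 (orange) eyes, with the mean as a point and a line from the lowest to the highest of 9 eyes. *Phgdh* is highest in both groups, and the orange line of *Psat1*, from 14.99 to 16.8, is hidden behind its point.

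Other genes of the pathway were counted from lists. Upstream, 0 of 9 genes for the eIF2α kinases, eIF2α and its phosphatase passed in edgeR, beside 4.25% of all genes tested. At an unadjusted p under 0.05 there were 2 of 9, beside 12.8% of all genes, and the median log2 fold change was 0.11. *Impact*, whose product restrains the amino acid sensor GCN2, had a log2 fold change of 0.61 (adjusted p = 0.0705). Of the 9 genes, *Impact* was the 1 called by DESeq2 (adjusted p = 0.0173) and by voom (adjusted p = 0.0480), beside 7.80% and 7.52% of all genes. It passed in edgeR without mouse 1 (adjusted p = 0.0267) and with the RPE score as a covariate (adjusted p = 0.0404). *Eif2ak2*, which encodes the kinase PKR, had 0.33 (adjusted p = 0.254).

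Other ATF4 partners and targets went both ways. Of 20 genes, 3 rose and 1 fell (7 at an unadjusted p under 0.05, median -0.07), beside 3.12% higher, 1.13% lower and 12.8% at an unadjusted p under 0.05 of all genes tested. *Eif4ebp1*, which encodes a translation repressor, rose from a median of 26.3 to 68.1 CPM (log2 fold change 1.53, SE 0.21, adjusted p = 0.00102 in edgeR, higher in 9 of 9 mice). *Cebpb*, a dimer partner of ATF4, rose from a median of 78.0 to 161 CPM (0.90, SE 0.15, adjusted p = 0.00371, 9 of 9). *Gdf15*, a secreted stress cytokine, rose from 5.32 to 12.2 CPM (1.33, SE 0.32, adjusted p = 0.0382, 8 of 9), a call lost when mouse 2, 4, 5, 7, 8 or 9 was left out (adjusted p from 0.0587 to 0.121). *Stc2*, the gene of stanniocalcin 2, fell from 2.34 to 0.492 CPM (-2.02, SE 0.31, adjusted p = 0.00215, lower in 9 of 9). Its levels were low, at 0.228 to 3.48 CPM in control eyes and 0.0647 to 1.23 CPM in Best1-Nrf2 eyes. The groups overlapped, with 2 of 9 Best1-Nrf2 eyes below the lowest control eye. *Stc2* was not tested when at least 10 counts were required in every library. With the RPE score as a covariate the calls of *Stc2* (-1.84, adjusted p = 0.0698), *Cebpb* (0.86, adjusted p = 0.0566) and *Gdf15* (1.30, adjusted p = 0.206) were lost at estimates close to those without it, and with the photoreceptor or the macrophage score no gene of the list passed. Without mouse 6, *Atf3*, named after its values were seen, passed as well (log2 fold change 0.86, adjusted p = 0.0295), so that 4 rose.

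The largest rises in these lists were in amino acid transporters, of which 2 of 9 rose and 0 fell (3 at an unadjusted p under 0.05, median 0.25), beside the same shares of all genes. *Slc7a11*, which imports cystine for glutathione, was 10.4 to 20.2 CPM in control eyes and 69.4 to 380 CPM in Best1-Nrf2 eyes (log2 fold change 3.53, SE 0.37, adjusted p = 0.000161 in edgeR). *Slc1a4*, a carrier of alanine, serine and cysteine, was 2.56 to 13.3 CPM in control eyes and 24.8 to 379 CPM in Best1-Nrf2 eyes (4.70, SE 0.59, adjusted p = 0.000587). For both, no Best1-Nrf2 eye overlapped the control eyes. Both passed with the Müller glia or the RPE score as a covariate, and neither passed with the photoreceptor or the macrophage score. With the photoreceptor score *Slc7a11* was at 2.27 (adjusted p = 0.251) and *Slc1a4* at 1.66 (adjusted p = 0.443), and with the macrophage score they were at 4.21 (adjusted p = 0.118) and 5.59 (adjusted p = 0.234). The promoter stretches of *Slc7a11* and *Slc1a4* above hold TGATGCAA in full. Beyond the members, promoters were searched only for genes that passed in these lists, so transporters that did not pass were not compared. Among the genes searched, *Cebpb*, *Gdf15*, *Sfxn1* and *Mthfd1l*, which rose, and *Stc2*, which fell, did not hold TGATGCAA. *Cebpb* and *Stc2* held TGACNNNGC. A link between these letters and the rises was not tested.

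Of 12 aminoacyl-tRNA synthetases in the ATF4 program and the tRNA exporter *Xpot*, 0 of 13 genes passed in edgeR, beside 4.25% of all genes (1 at an unadjusted p under 0.05, median 0.02). *Iars*, for isoleucine, had a log2 fold change of 0.76 (adjusted p = 0.0591) and was the 1 gene called by DESeq2 and by voom (adjusted p = 0.00918 and 0.00573). It also passed in edgeR without mouse 6 (log2 fold change 0.87, adjusted p = 0.0195) and with upper-quartile scaling (adjusted p = 0.0475). *Xpot* had 0.39 (adjusted p = 0.601). Of 8 synthetases outside the program, 0 passed in edgeR, DESeq2 or voom (1 at an unadjusted p under 0.05, median 0.06), with *Dars* at 0.31 (adjusted p = 0.344) and *Farsb* at 0.24 (adjusted p = 0.611).

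Of 24 other serine, glycine and folate genes tested, 2 rose and 0 fell (5 at an unadjusted p under 0.05, median 0.14), again beside 3.12% higher and 1.13% lower of all genes. *Sfxn1*, which encodes the carrier that takes serine into mitochondria, was 18.8 to 37.3 CPM in control eyes and 44.0 to 78.7 CPM in Best1-Nrf2 eyes, without overlap (log2 fold change 1.16, SE 0.14, adjusted p = 0.000375 in edgeR, higher in 9 of 9 mice). It did not pass with the photoreceptor score (1.64, adjusted p = 0.188) or the macrophage score (1.27, adjusted p = 0.343) as a covariate. *Mthfd1l*, for the mitochondrial synthetase that releases formate, rose from a median of 3.24 to 6.46 CPM (1.05, SE 0.26, adjusted p = 0.0429, 9 of 9), a call lost on leaving out any single mouse other than mouse 8 (adjusted p from 0.0559 to 0.0939). The call of *Mthfd1l* was lost in 15 of 22 alternatives, among them the model without the replicate block (adjusted p = 0.108). Without mouse 6, *Gldc* (0.89, adjusted p = 0.0296) and *Aldh1l1* (0.77, adjusted p = 0.0480), named after their values were seen, passed beside *Sfxn1*, so that 3 rose. Neighbouring steps had estimates of opposite sign, with *Sfxn1* and *Mthfd1l* higher and *Mthfd2*, which did not pass, at -0.66.

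At a share of 4.25% over all genes, few calls can fall in lists of this length. Of 21 genes for endoplasmic reticulum chaperones and the ATF6 and XBP1 arms, 0 passed in edgeR, DESeq2 or voom and 0 had an unadjusted p under 0.05 (median 0.01), and *Hyou1* and *Sdf2l1* had log2 fold changes of 0.42 (adjusted p = 0.743) and 0.38 (adjusted p = 0.449). Of 10 mitochondrial chaperones and proteases, 0 passed in edgeR, DESeq2 or voom and 0 had an unadjusted p under 0.05 (median 0.17), with *Hspe1* at 0.46 (adjusted p = 0.591) and *Afg3l2* at 0.40 (adjusted p = 0.403).

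**Figure D5:**
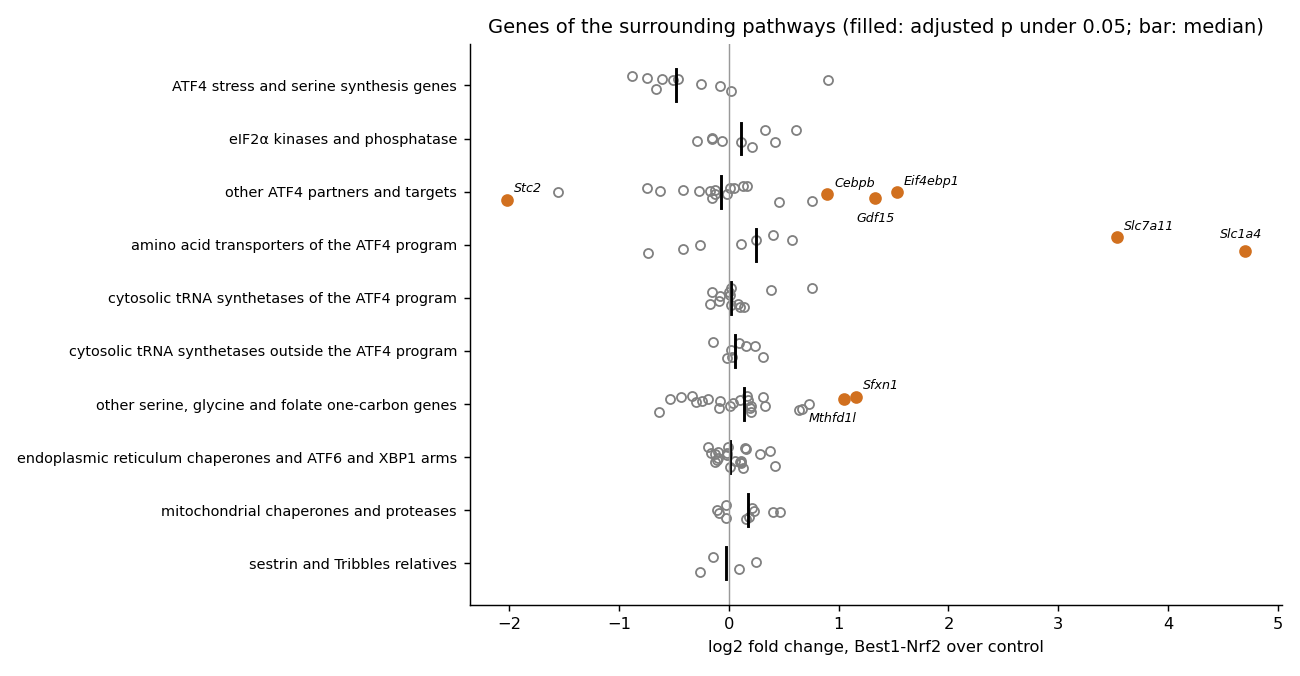
Log2 fold change, Best1-Nrf2 over control, of each tested gene in the lists, with list medians as bars and genes at an adjusted p under 0.05 filled and named. The 10 members are all open circles around a median of -0.48, whereas *Slc7a11* (3.53) and *Slc1a4* (4.70) lie far to the right and *Stc2* (-2.02) to the left.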

How the data were processed

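The labels put 18 libraries of RPE RNA, both eyes of 9 mice, into Best1-Nrf2 and control groups, all labelled *rd1*. The study's methods describe fewer *rd1* pairs at this age and also wild-type CD1 pairs, so some of these mice may be CD1, and strain could not be a term. The deposited table holds expected counts per gene, which the authors made in bcbio-nextgen after FastQC, with STAR on mm10 and featureCounts, or with Salmon 0.8.1. Which counter made it is not given in the sources used here. No molecular identifiers were described, so reads were not independent molecules. The libraries came from 2 sequencing runs that the labels do not assign, so run could not be a term.

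Counts were rounded. Symbols were found for 47224 of 47729 genes. Genes passing filterByExpr were scaled by TMM and tested in R 4.3.3 with edgeR 4.0.16 (quasi-likelihood, mouse and group), Benjamini-Hochberg adjusted over 18958 genes with a threshold of 0.05. Log2 CPM used a prior count of 2. Intervals are 95% intervals. Positions and exon lengths are from GENCODE mouse release M21 on GRCm38. DESeq2 1.42.0 and limma 3.58.1 (voom) were alternatives, and the procedure was tested on simulated data. No pair of libraries of a group was a duplicate (72 pairs, lowest chi-square per degree of freedom, 50.6). Both eyes of a mouse share its number in the labels, which is why mouse was a block, although after group means were removed the correlation between its eyes was only -0.373 to 0.644.

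The members and lists were chosen with earlier results of these data known. Named beside the members are up to 4 genes per list and direction past the threshold with the smallest p, or else the 2 with the smallest p, and the 3 genes most like *Atf4* and *Phgdh* (mean log2 CPM of at least 2).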

Additional observations from a re-analysis of the deposited data

Results flagged for a closer look

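The spread of each group of 9 eyes was screened for single eyes far from the others (22 groups, for the 10 members and *Nfe2l2*). Such a screen marks about 1 in 20 groups by chance, here 1.1, and it marked 3. All 3 were eyes of mouse 8. *Phgdh* was lowest in control replicate 8, at 7.42 log2 CPM (171 CPM), with the next control eye at 8.46. *Nfe2l2* was highest in the same library, at 7.06 log2 CPM (134 CPM), with the next at 6.60. *Trib3* was lowest in Best1-Nrf2 replicate 8, at 0.71 log2 CPM, a count of 49, with the next at 2.09. Control replicate 8 was also the smallest library. The cause of these values was not tested.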

How the results depend on the processing

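Of the 22 alternatives, RLE scaling, the count filters and an adjusted p of 0.1 moved no count of called members. The model without the replicate block called 742 genes, and no member changed its call without it. DESeq2 called 1478 genes (1 member higher and 1 lower) and voom 1426 (1 higher and 2 lower). Leaving out a mouse gave 0 to 1 members higher and 0 to 1 lower, and leaving out mice 6 and 8, an alternative chosen after seeing the data, gave 1 higher and 1 lower. Covariates for the scores of other cells cost most calls, and they vary with the group. With the photoreceptor score, 0 genes passed, and *Nfe2l2* stood at 1.71 (adjusted p = 0.236). With the macrophage score 28 genes passed, with the Müller glia score 467, and with the RPE score 396, of which 1 was a member, lower (*Trib3*, log2 fold change -1.73, adjusted p = 0.0248). Signs turned with the photoreceptor score for *Atf4* (0.038), *Ddit3* (1.31), *Asns* (1.09), *Sesn2* (-0.23), *Mthfd2* (0.64), *Iars* (-0.16), *Xpot* (-0.86), *Hyou1* (-1.18) and *Afg3l2* (-0.37), and with the macrophage score for *Trib3* (0.11), *Asns* (0.41) and *Mthfd2* (0.25). None of these passed. In the lists, DESeq2 called 3 of 24 one-carbon genes higher, and 4 of 20 other ATF4 genes higher and 2 lower (*Fgf21*, *Stc2*). It also called 1 of 9 transporters lower (*Slc7a1*), beside 7.80% of all genes called in either direction. Voom called 4 of 24 one-carbon genes higher and 1 lower (*Mthfd2l*), beside 7.52% of all genes. The count of one-carbon genes higher went from 2 to 1 without the replicate block, with upper-quartile scaling, with no count filter and with the Müller glia score. *Psph* became -0.022 with upper-quartile scaling, -0.063 with voom, between -0.074 and 0.15 on leaving out a mouse, and -0.12 without mice 6 and 8, and 0.90 with the photoreceptor score. The cause was not tested.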

Other observations

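The spread among eyes differed between groups for some members. The coefficient of variation of *Psat1* in CPM was 24.97% over the control eyes and 4.32% over the Best1-Nrf2 eyes (n = 9 each), and that of *Phgdh* was 30.4% and 17.1%. That of *Asns* went the other way, from 31.2% to 89.6%, and that of *Ddit3* from 48.8% to 87.4%, and in both of these the Best1-Nrf2 eye of mouse 6 was the highest. These differences in spread were not tested.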
